A study of Schmidtea mediterranea with 18 samples.

Results

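These 134 transcripts of the planarian Schmidtea mediterranea, of 82955 counted, had a lower mean level in APC RNAi than in control RNAi while their mean level in Bcat RNAi stayed near that of control. They were selected on measured values, the read counts of the same libraries. Levels were CPM, the read count of a transcript scaled to a common total of aligned transcript reads per library. The mean over the 6 days of a treatment, with 0.1 CPM added, had to be at least 4.1 in control, at most 0.6 of control in APC RNAi, and between 0.67 and 1.2 of control in Bcat RNAi. APC RNAi also had to be below control at each of the 6 days. Everything these conditions used is given as a description and not as a finding.

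All animals were of the asexual clonal strain CIW4 and are called wildtype in the labels. They were fed 3 times with double-stranded RNA targeting APC, beta-catenin-1 (Bcat RNAi) or, as control, GFP, and were amputated 3 days after the last feed. PolyA RNA of the regenerating fragments, called trunk in most labels and tail in the treatment protocol, was sequenced daily from day 1 to day 6. Each of the 18 libraries is a pool of 3 biological replicates, 1 library per treatment and day, so an SD is over the 6 days of a treatment and a p-value measures the spread over days and pools, not between animals. In a sample of whole fragments, fewer cells of a type and less RNA per cell cannot be told apart.

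Planarians rebuild missing parts from dividing stem cells, and canonical Wnt signalling tells the new tissue whether it is posterior. The APC protein belongs to the complex that marks beta-catenin for breakdown, so loss of APC raises pathway output and loss of beta-catenin lowers it. In planarians, apc RNAi is known for tails regrown at anterior wounds and beta-catenin-1 RNAi for heads regrown at posterior wounds. The transcripts described here were lower in the first knockdown and near control in the second, by their means. The files do not pair SmedASXL identifiers with gene names, so no function is given to any of them, and neither the RNAi targets nor tissue markers were looked up.

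Libraries held 41549185 to 58308153 transcript reads, with 3.98% to 6.06% of reads unaligned. The share of reads in the 64861 transcripts with a mean under 1 CPM differed between libraries. It was 0.869%, 1.03%, 1.16%, 1.2%, 1.22% and 1.36% in control from day 1 to day 6, and 0.636%, 0.632%, 0.829%, 0.755%, 0.588% and 0.919% in APC RNAi, which was the lower at each day. In Bcat RNAi it was 1.05%, 1.04%, 1.08%, 1.31%, 0.950% and 1.26%. None of the 134 transcripts belongs to that low-abundance set. This share is given beside the results below because the 134 transcripts moved with it.

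Of 13217 transcripts with the required control level, 226 had an APC RNAi mean of at most 0.6 of control and 222 of these were lower in APC RNAi at each day. Another 44 left the selection because Bcat RNAi was low as well and 44 because it was too high, which leaves 134. Most of the 134 were close to the limits. Their APC RNAi to control ratio had a median of 0.561, with quartiles of 0.535 and 0.586, against 0.935 for the 13217. For 85 the ratio was above 0.55, for 18 it was at most 0.5, and for only 2 it was at most 0.2. The nearest transcripts on either side of the 0.6 limit stood at 0.60 and 0.601, so the limit crosses a continuous range. At the lower Bcat RNAi limit the neighbours stood at 0.665 and 0.672, and at the upper one at 1.197 and 1.25. The control means of the 134 ranged from 4.02 to 95.6 CPM with a median of 5.97, against 23.0 for the 13217. For 105 the control mean was below 10 CPM, for 16 it was from 10 to 20 and for 13 at least 20. These levels are shares of reads and not levels per length.

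**Figure D1:**
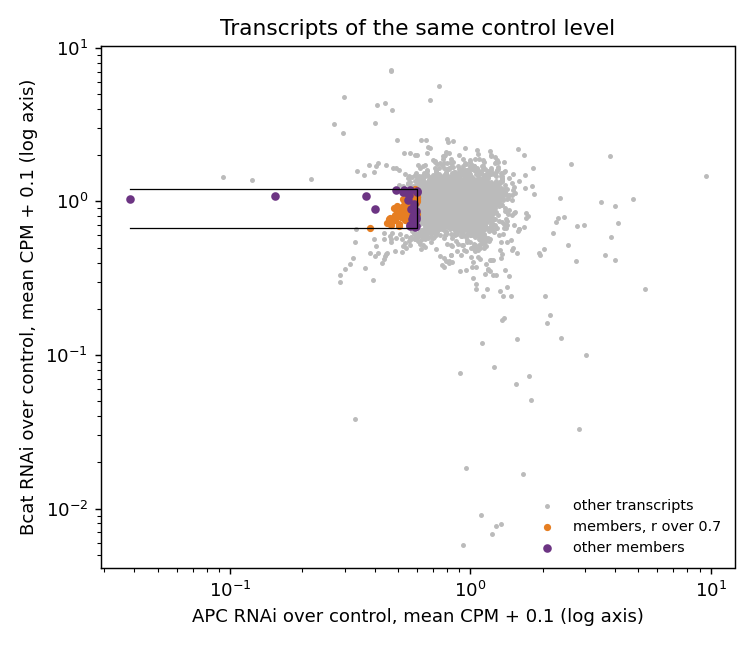
Ratio of mean CPM (0.1 added) in APC RNAi over control on the x axis and in Bcat RNAi over control on the y axis, both log axes, for the 13217 transcripts with the required control level (grey) and the 134 selected ones (orange where the level correlated with the low-abundance share at r over 0.7 within treatments, purple otherwise). The black lines are the limits of the selection. Most of the selected transcripts lie against the 0.6 limit, and 2 lie far to its left.

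The steepest loss was that of SmedASXL_018153. Its control level fell and rose again, with 43.4, 22.8, 12.4, 6.50, 16.0 and 27.2 CPM at days 1 to 6. In APC RNAi it stood at 2.02, 0.360, 0.386, 0.337, 0.519 and 0.704 CPM, which is 217 reads in the 6 libraries together against 6786 in control. In Bcat RNAi it had 10.8, 22.3, 11.1, 17.8, 24.4 and 47.0 CPM. Every APC RNAi library was below every control and every Bcat RNAi library. The APC RNAi to control ratio of the means was 0.0382, and the fitted log2 fold change was -4.61 (adjusted p = 5.22e-08, SE 0.38, edgeR quasi-likelihood test, Benjamini-Hochberg over 36235 transcripts). Its low value in APC RNAi kept a fitted log2 fold change between -4.42 and -4.90 when any 1 day was left out.

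This transcript was not steady in Bcat RNAi from day to day. The Bcat RNAi to control ratio was 0.250, 0.976, 0.902, 2.71, 1.52 and 1.73 from the first day to the last, while the ratio of the means over days was 1.04. Control fell to its lowest at day 4, whereas Bcat RNAi was lowest at days 1 and 3 and highest at day 6. Without day 1 the transcript no longer met the selection, while each other day could be left out. Its deviations from the treatment means had r = -0.18 with the low-abundance share, the lowest of the 134.

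SmedASXL_017380 was lowered less steeply and was far steadier in the other treatments. Its control levels were 66.6, 65.3, 66.2, 67.7, 71.4 and 79.4 CPM at days 1 to 6, and its Bcat RNAi levels ranged from 70.4 to 82.2 CPM. In APC RNAi it stood at 11.97, 9.82, 12.6, 9.51, 7.44 and 12.5 CPM. The highest APC RNAi library was thus far below the lowest of the other 12. The means were 10.6 CPM ± 2.06 in APC RNAi, 69.4 ± 5.31 in control and 75.8 ± 5.49 in Bcat RNAi (SD, n = 6 days each), a ratio to control of 0.154. The fitted log2 fold change was -2.46 (adjusted p = 8.61e-15, SE 0.08, edgeR). Bcat RNAi was above control at each day, by a ratio of 1.02 to 1.21, but this was not called over the whole course (log2 fold change 0.12, adjusted p = 0.268, SE 0.07, edgeR).

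The next in the order of loss, SmedASXL_013711, was singled out after its values were seen. Its levels ranged from 5.23 to 8.40 CPM in APC RNAi with a median of 7.70, from 14.2 to 24.8 with a median of 21.1 in control, and from 16.0 to 25.7 with a median of 22.3 in Bcat RNAi. APC RNAi overlapped neither of the other groups, and the ratio of means to control was 0.369. The fitted log2 fold change was -1.19 (adjusted p = 3.98e-11, SE 0.06, edgeR).

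SmedASXL_012349 took the most reads of the 134 in control and is nearer to the bulk of them. From day 1 to day 6 it went from 64.4 to 137 CPM in control, from 41.1 to 79.8 in APC RNAi and from 63.4 to 160 in Bcat RNAi. The highest APC RNAi library lay above the lowest control library, so the groups overlapped although APC RNAi was lower at each single day. The daily ratio to control was 0.639, 0.603, 0.710, 0.497, 0.428 and 0.581. In Bcat RNAi the level was higher than in control at days 2 to 6, and the log2 fold change of 0.24 was called (adjusted p = 0.0185, SE 0.07, edgeR), within the limits of the selection. This call was lost without day 2, 3 or 6 (adjusted p = 0.0760, 0.0987 and 0.0514, edgeR), with no replicate block (adjusted p = 0.432) and with a model term for a library set, Bcat RNAi day 1 with control days 2 to 6 (0.09, adjusted p = 0.595).

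**Figure D2:**
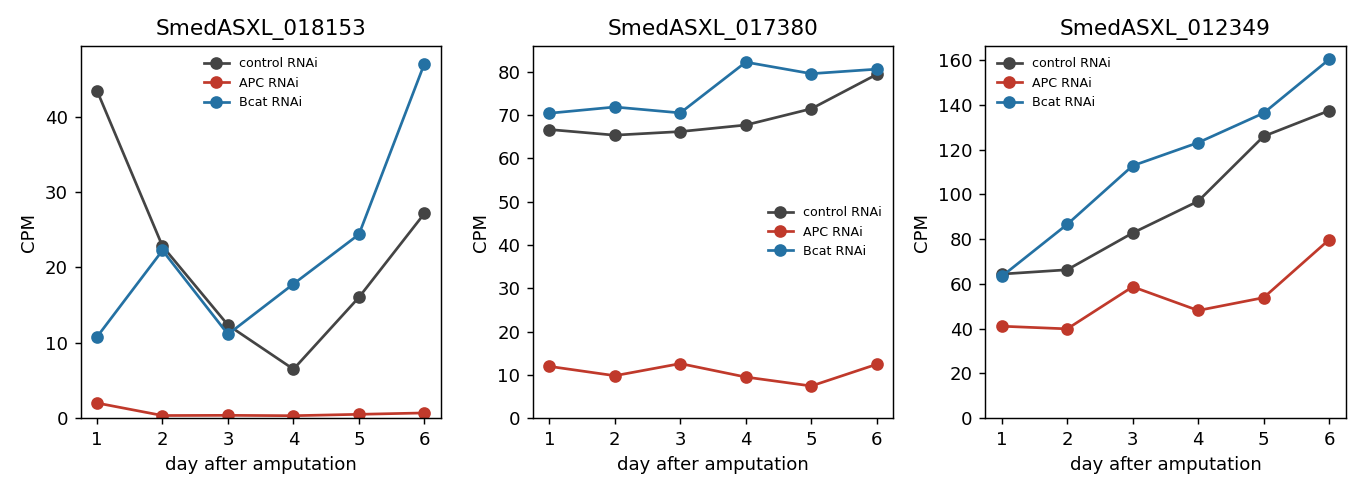
Level in CPM (y axis) against day after amputation (x axis) of SmedASXL_018153 and SmedASXL_017380, which had the lowest APC RNAi to control ratios, and of SmedASXL_012349, which had the highest control level. Each point is 1 library. APC RNAi lies below the other lines at each day in all panels, at up to 2.02 CPM in the left one. The Bcat RNAi line crosses the control line in the left panel, and in the right one between days 1 and 2.

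For most of the 134 the loss was smaller and differed by day. The median APC RNAi to control ratio over the 134 was 0.681, 0.536, 0.621, 0.546, 0.384 and 0.593 from day 1 to day 6. It was thus lowest at day 5 and nearest to 1 at day 1. Over the 13217 transcripts of the same control level the daily medians stayed between 0.893 and 0.964. The quartiles of the 134 at day 5 were 0.334 and 0.422. The low-abundance share moved in the same order over the days: its APC RNAi to control ratio was 0.732, 0.614, 0.718, 0.629, 0.482 and 0.674. The calls made with that share as a term in the model are given further on.

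All 134 were called lower than control in APC RNAi (edgeR, adjusted p under 0.05), where 23.1% of all tested transcripts were lower, and the selection used that contrast. The median log2 fold change was -0.60, with a range of -4.61 to -0.46, against -0.11 over all tested transcripts. Fewer of them were separated library by library. For 38 the highest APC RNAi library was below the lowest control library, as it was for 1001 of the 13217. Against Bcat RNAi, 119 were called lower, beside 26.0% of all tested transcripts, with a median log2 fold change of -0.52. With the low-abundance share as a term that median was 0.09 and 8 were called lower, beside 910 of the 36235 tested. The highest APC RNAi library was below the lowest Bcat RNAi library for 47, and APC RNAi was below Bcat RNAi on the same day at all 6 days for 125. These counts against Bcat RNAi were not made over the 13217, and the selection fixes most of this contrast, so they are descriptions.

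The libraries of 1 knockdown were not steady over the days either. Each level was divided by the mean of that transcript over the 6 control libraries. The median over the 134 was 0.68, 0.88, 1.01, 1.07, 1.10 and 1.26 in control from day 1 to day 6. In APC RNAi it was 0.46, 0.46, 0.63, 0.58, 0.40 and 0.73, and in Bcat RNAi 0.84, 0.88, 0.91, 1.13, 0.74 and 1.07. Control was higher at each day than at the day before, APC RNAi dipped at day 5, and Bcat RNAi peaked at day 4 and dipped at day 5. The highest APC RNAi library, day 6, was above the lowest control library, day 1.

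**Figure D3:**
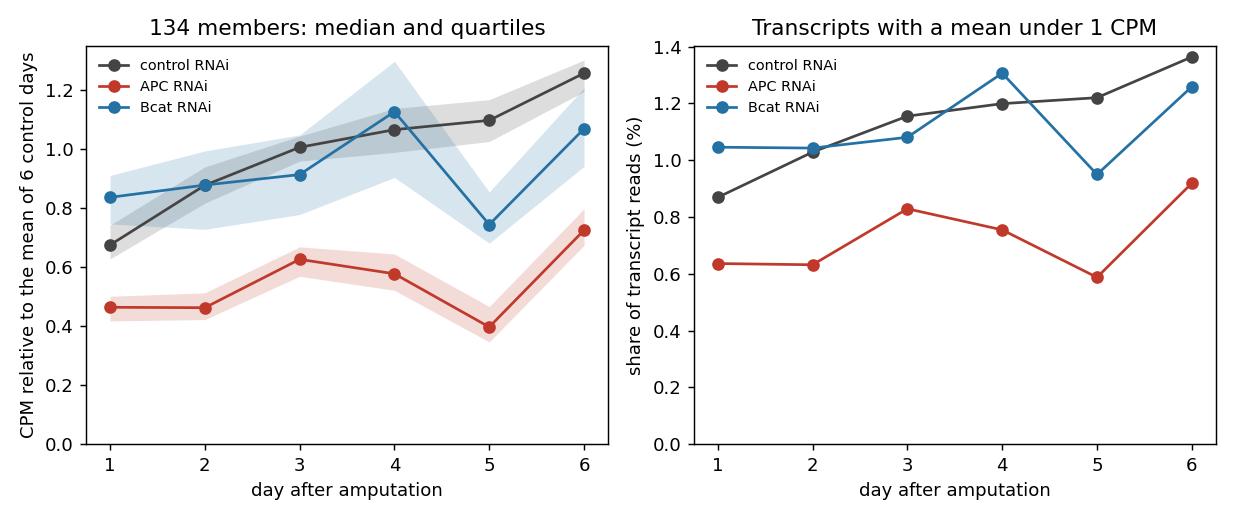
Left, the level of the 134 transcripts by day after amputation, each divided by its own mean over the 6 control libraries (points and lines, median; bands, quartiles). Right, the share of transcript reads (%) in transcripts with a mean under 1 CPM, by day, 1 library per point. In both panels control rises from day 1 to day 6, APC RNAi is lower and dips at day 5, and Bcat RNAi peaks at day 4 and dips at day 5.

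In Bcat RNAi the transcripts were steady as a mean over days but not day by day. The median ratio to control was 1.22, 0.999, 0.908, 1.05, 0.698 and 0.874 over the 6 days in order. At day 1, 113 of the 134 were above control, and at day 5 only 11 were. The low-abundance share ratio was 1.203, 1.01, 0.936, 1.09, 0.778 and 0.923 at the same days. The ratio of the means over days ranged from 0.672 to 1.197 with a median of 0.932, and 24 transcripts were below 0.8. Within the limits of the selection 4 transcripts were called higher and 32 lower than in control, beside 9.45% and 11.0% of all tested transcripts (edgeR, adjusted p under 0.05). With each of days 1 to 6 left out in turn the higher calls numbered 9, 1, 0, 2, 8 and 1, and the lower ones 54, 27, 20, 26, 23 and 26. Over all tested transcripts 3635, 2544, 2140, 2459, 2922 and 2660 were then higher, and 4779, 2935, 2633, 2742, 3823 and 3267 lower. With the library set term 0 were called higher and 4 lower, beside 1105 and 1499 of the 36235 tested. The median log2 fold change then went from -0.11 to 0.02. That set holds Bcat RNAi day 1 and control days 2 to 6, so Bcat RNAi and control of the same day are never both in it. Which of them is in it switches after day 1. The name steady therefore holds for the limits set on the mean and not for each transcript or day.

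The transcripts whose Bcat RNAi level stayed nearest to control at each day were SmedASXL_074079 and SmedASXL_016963. SmedASXL_074079 ranged from 2.97 to 5.14 CPM in control, from 3.42 to 5.69 in Bcat RNAi and from 1.71 to 2.81 in APC RNAi. Its Bcat RNAi to control ratio lay between 0.936 and 1.16 at the 6 days. SmedASXL_016963 ranged from 3.46 to 5.37 CPM in control, from 4.00 to 5.95 in Bcat RNAi and from 1.97 to 3.21 in APC RNAi, with daily Bcat RNAi ratios of 0.852 to 1.17. Both lost level in APC RNAi like the rest, with ratios of means of 0.555 and 0.592. For both, all 6 APC RNAi libraries were below all 6 control and all 6 Bcat RNAi libraries.

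The selection set no condition on how a level changed over the days of regeneration. It did use the same libraries, as means over days and as the order of APC RNAi and control at each day. The slopes are thus not independent of it. In control, 30 of the 134 rose with day and 0 fell (edgeR quasi-likelihood test of the slope, adjusted p under 0.05), beside 2.93% and 7.23% of all tested transcripts. At an unadjusted p under 0.05 there were 74. DESeq2 called 38 rising and 0 falling, beside 769 and 3697 of the 36235 tested. With each of days 1 to 6 left out in turn, 8, 15, 25, 24, 70 and 11 rose in edgeR. Over all tested transcripts 262, 428, 788, 744, 1588 and 334 then rose. The slope was positive for 131 of the 134, with a median of 0.10 log2 units per day, against -0.04 for the 13217, of which 4.1% rose and 18% fell. The median slope was 0.06 in APC RNAi and 0.02 in Bcat RNAi. In control, 122 of the 134 were lowest at day 1, where 30.2% of the 13217 were, and 98 were highest at day 6, against 25.6%. Day 1 and day 6 are also the control libraries with the lowest and the highest low-abundance share. With the share as a term in the model, 9 rose, beside 837 of the 36235 tested, and the median slope was 0.01.

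The largest rise in control was that of SmedASXL_010173, at 2.90, 2.66, 7.97, 10.7, 13.4 and 14.5 CPM from day 1 to day 6. It went in APC RNAi from 1.37 to 6.17 CPM and in Bcat RNAi from 2.52 to 12.7 CPM, at a lower level in APC RNAi throughout. The control slope was 0.48 log2 units per day (adjusted p = 6.28e-05, SE 0.06, edgeR), and the slopes were 0.47 in APC RNAi and 0.43 in Bcat RNAi. SmedASXL_016217 came next, with 5.01 CPM at day 1 and 11.3 at day 6 in control (slope 0.20, adjusted p = 0.00126, SE 0.04, edgeR). No falling slope was called. The lowest p among negative slopes was that of SmedASXL_018153 at -0.20 per day (adjusted p = 0.216, SE 0.10, edgeR), whose control level fell to day 4 and rose after it.

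Whether the loss in APC RNAi grew or shrank over the days was tested as the difference of slopes. The selection fixed the sign of the loss at each day, which limits its trend, so the counts of signs are a description. edgeR called 0 of the 134 in either direction, beside 0.0359% of all tested transcripts with a higher and 0.00276% with a lower slope than control. DESeq2 also called 0, and 5 had an unadjusted p under 0.05 in edgeR. The difference was negative for 112 of the 134, with a median of -0.05 log2 units per day, against 0.02 over all tested transcripts and 0.03 over the 13217. Leaving out day 1, 5 or 6 moved the median of the 134 to -0.03, -0.02 or -0.12, and it was -0.01 with the low-abundance share as a term. Among positive differences the lowest p was that of SmedASXL_028927 (0.07 per day, adjusted p = 0.757, SE 0.06, edgeR), and among negative ones that of SmedASXL_071252 (-0.15 per day, adjusted p = 0.570, SE 0.05, edgeR). SmedASXL_028927 had 2.2 CPM at day 1 and 4.64 at day 6 in APC RNAi, against 4.17 and 6.32 in control. SmedASXL_071252 went from 2.71 to 3.04 CPM in APC RNAi while control went from 3.43 to 7.52.

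For Bcat RNAi the difference of slopes was called for 0 of the 134 in either direction, beside 0.0193% and 0.0138% of all tested transcripts. DESeq2 called 0, and 15 had an unadjusted p under 0.05 in edgeR. The difference was negative for 118, with a median of -0.08 log2 units per day, which was -0.05 without day 1 and -0.01 with the low-abundance share as a term. Over all tested transcripts the median was 0.0009 and over the 13217 it was 0.02. SmedASXL_018153 had the lowest p among the positive ones, at 0.51 per day (adjusted p = 0.552, SE 0.15, edgeR). With day also as a factor in this model it was called at 0.50. SmedASXL_071252 had the lowest p among the negative ones, at -0.20 per day (adjusted p = 0.351, SE 0.05, edgeR): its Bcat RNAi level was 4.96 CPM at day 1 and 4.29 at day 6. Both comparisons of slopes share the 6 control libraries.

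The level of most of the 134 followed the low-abundance share from library to library inside a treatment. For each transcript, log2 levels and the log2 share were taken as deviations from their treatment means, so that the difference between treatments, which the selection used, drops out. Over the 18 libraries Pearson's r had a median of 0.874 over the 134, with quartiles of 0.788 and 0.919, against 0.208 over the 13217. It exceeded 0.7 for 110 of the 134 (82.1%) and for 9.85% of the 13217. The control level differs between these groups, but among the 3110 transcripts of 4 to 10 CPM in control the median was 0.285 and 13.2% exceeded 0.7. The points share their library, and with it the total of reads that both values were divided by. Spearman's rho had a median of 0.870 against 0.187. Without the points of the libraries whose share lay farthest from the median of its deviations, control day 1 and APC RNAi day 6, the median r was 0.832 against 0.163. The treatment means still included these libraries in that check.

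The same held inside each treatment, with 6 libraries each. The median r was 0.933 in control, 0.903 in APC RNAi and 0.816 in Bcat RNAi, against 0.192, 0.345 and 0.0741 over the 13217. Without day 5, the median was 0.881 over the 134 and 0.242 over the 13217. The transcripts that the Bcat RNAi limits removed were less like this: the median was 0.371 for the 44 that were low in Bcat RNAi and 0.602 for the 44 that were high there. With the log2 share as a term in the model, a setting chosen after seeing the data, 3 of the 134 were called lower in APC RNAi and the median log2 fold change was -0.03. In that model 14 transcripts of all tested were higher and 20 lower. The share was 0.588% to 0.919% in APC RNAi and 0.869% to 1.36% in control, so the share and the treatment differ nearly together, and their parts cannot be told apart.

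The 3 that were still called are the ones with the lowest ratios. SmedASXL_017380 had a log2 fold change of -2.23 (adjusted p = 2.98e-05), SmedASXL_013711 -1.21 (adjusted p = 0.00673) and SmedASXL_018153 -6.07 (adjusted p = 0.0101) in that edgeR model. Against Bcat RNAi, 8 were called lower with the same term, beside 910 of the 36235 tested, and these 3 were among the 8. The median log2 fold change of the 134 against Bcat RNAi turned from -0.52 to 0.09 with that term, and it was then positive for 81 and negative for 53.

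**Figure D4:**
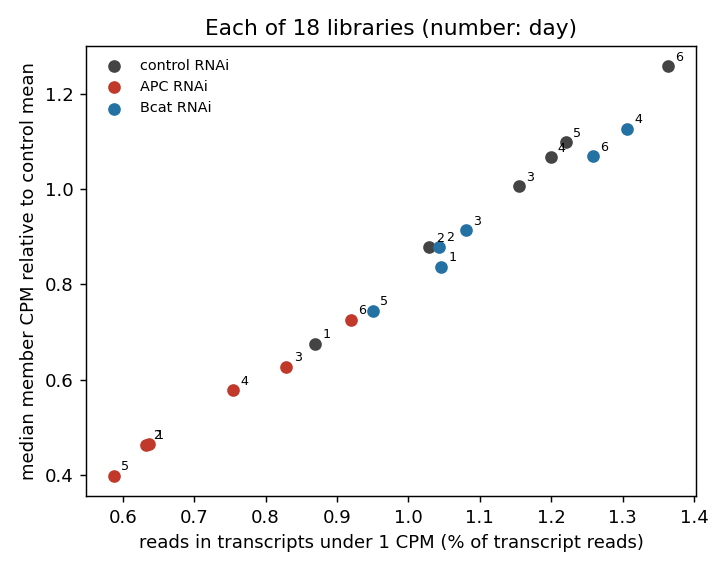
Median level of the 134 transcripts relative to their control means (y axis) against the share of transcript reads (%) in transcripts under 1 CPM (x axis). Each point is 1 of 18 libraries, numbered by day. APC RNAi fills the low end, from a median level of 0.40 at day 5 to 0.73 at day 6, and control day 1 (0.68) lies among the APC RNAi libraries.

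The identifiers of the 134 were unevenly spread. SmedASXL numbers from 70000 to 79999 held 88 of them (65.7%), but 4.52% of the 13217 and 12% of all transcripts. Numbers from 10000 to 19999 held 31 (23.1%) against 57.0%, and numbers below 10000 held 4 (2.99%) against 33.9%. Among the 3110 transcripts of 4 to 10 CPM in control, 11.2% were in the block from 70000. Of the 88 in that block, 82 followed the low-abundance share with r over 0.7. The block as a whole leaned the same way: its 598 transcripts of the required control level had a median APC RNAi to control ratio of 0.791 and a median r of 0.483. What sets this block of numbers apart in the transcript collection is not stated in the sources used. The 3 transcripts with the lowest ratios lie outside it, and so does SmedASXL_012349.

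**Figure D5:**
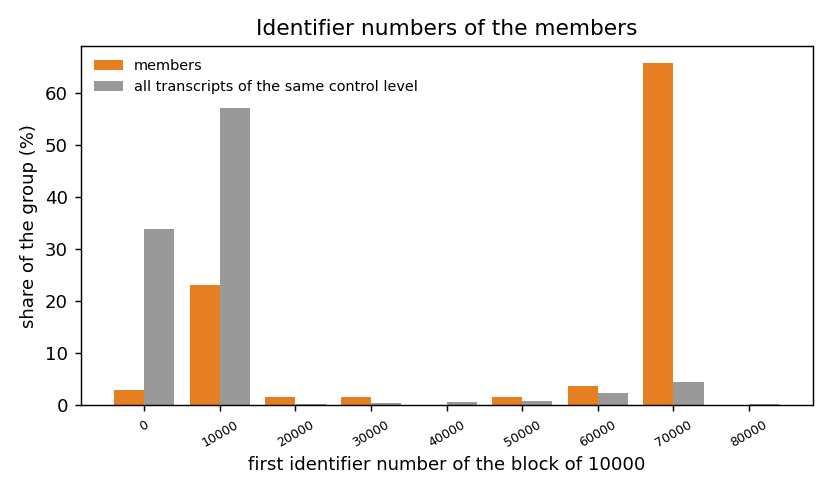
Share (%) of the 134 selected transcripts (orange) and of the 13217 transcripts with the required control level (grey) in blocks of 10000 consecutive SmedASXL identifier numbers. The block starting at 70000 holds 65.7% of the selected transcripts and 4.52% of the others' group.

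The size of the selection depended on how libraries were scaled. TMM factors, which edgeR takes from the bulk of transcripts, were 0.804 to 0.970 in APC RNAi, 0.969 to 1.15 in control and 1.01 to 1.13 in Bcat RNAi. With CPM divided by these factors, 19 transcripts met the selection, all of them among the 134. With RLE factors 11 did, of which 10 were among the 134. The median ratio of the 134 to control was then 0.666 and 0.697, where the 13217 had 1.11 and 1.17; a scaling factor moves all transcripts of a library alike, so nothing is read from this gap. APC RNAi was below control at all 6 days for 126 of the 134 with TMM and for 122 with RLE. SmedASXL_018153 and SmedASXL_017380 met the selection under both. Of the 19 kept with TMM, 14 had r over 0.7 with the low-abundance share and 14 were in the block from 70000.

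Day 5 weighed most in the selection. Without it 66 transcripts met the conditions, 61 of them among the 134, and without any other single day 116 to 182 did. Day 5 was the library with the lowest low-abundance share in APC RNAi and in Bcat RNAi. Among the APC RNAi libraries alone, 84 of the 134 were lowest at day 5, where 32.5% of the 13217 were. The selection used these levels, so this is a description.

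The authors' deposited table compares APC RNAi with Bcat RNAi over all days and lists transcripts past its own limits. Of the 134, 116 (86.6%) are in the authors' deposited table, each with a lower level in APC RNAi, and 14.2% of the 13217 are listed as lower there. The selection fixes most of this contrast, so the count is a description. In the authors' deposited table the log2 fold changes of the 116 ranged from -2.52 to -0.28 with a median of -0.53. It gives -2.52 (SE 0.0983, adjusted p = 1.86e-141) for SmedASXL_017380. For SmedASXL_018153 the authors' deposited table gives -2.13 (SE 0.274, adjusted p = 3.88e-13), where the fit here gave -4.77 against Bcat RNAi.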

How the data were processed

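The authors deposited raw read counts per SmedASXL transcript for 18 libraries. The submitters' processing notes name Bowtie2 2.2.4, bcl2fastq 1.8.3 and DESeq2. How reads shared by similar transcripts were placed, and strand, are not stated in the sources used, which makes near-identical transcripts uncertain. Each aligned read was counted once. The deposited APC against Bcat RNAi table holds, per the file headers, the authors' log2 fold changes with their SE, a test score, a mean signal (normalized counts) and p-values.

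The members and lists were chosen with earlier results of these data known. Groups come from the treatment label and day from the title. Counts were tested in R 4.3.3 with edgeR 4.0.16 (TMM, glmQLFit, glmQLFTest) on 36235 transcripts kept by filterByExpr, all 134 included; the 46720 left out held 0.284% of reads. The first model had treatment and day as factors (10 residual degrees of freedom), the second a day slope per treatment (12). Adjusted p-values are Benjamini-Hochberg over all tested, threshold 0.05. The steps were tested on simulated counts. DESeq2 1.42.0, limma 3.58.1 (loess offsets), other filters and scalings, each day left out and a term for a set of libraries were alternatives.

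The replicate number is the day, so day is the replicate block, and the labels give that pairing. Same-day deviations from treatment means correlated at 0.112 to 0.693 between APC RNAi and control, at -0.0963 to 0.605 between Bcat RNAi and control and at 0.0524 to 0.601 between the knockdowns, lowest at day 3.

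Transcripts named are the 2 with the lowest APC RNAi ratio, the 2 with the highest control level, the 2 with the steadiest daily Bcat RNAi ratio, and for slopes the 2 largest called each way, or the lowest p each way where none was called.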

Additional observations from a re-analysis of the deposited data

Results flagged for a closer look

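SmedASXL_018153 at day 1 of APC RNAi stood apart from the other days of that treatment: its 2.02 CPM (2.019) was above the 0.337 to 0.704 CPM of days 2 to 6, by a gap of 0.782 of the whole range. Control was also highest at day 1, at 43.4 CPM, and the daily ratio to control there was 0.0487. It was the only such library among 36 groups checked, of which chance alone marks about 1 in 20.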

How the results depend on the processing

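Levels rest on CPM of pooled RNA with 1 library per treatment and day, and 105 of the 134 transcripts had a control mean below 10 CPM. The number of transcripts meeting the selection moved from 134 to 19 with TMM and 11 with RLE scaling, and ranged from 66 to 182 with 1 day left out. Scaling by library size alone moved the median log2 change over all tested transcripts in APC RNAi from -0.11 to -0.37 and that of the 134 from -0.60 to -0.86. The calls of APC RNAi below control fell to 84 with a term for a library set, beside 1501 of the 36235 tested. That set is Bcat RNAi day 1 with control days 2 to 6. It holds no APC RNAi library, so the term and this contrast differ nearly together. With the low-abundance share as a term, chosen after seeing the data, these calls fell to 3, beside 20 of the 36235 tested. With that term 8 were below Bcat RNAi, and SmedASXL_012349 (-0.49), SmedASXL_074079 (-0.60) and SmedASXL_016963 (-0.11) were no longer called against control. Bcat RNAi calls were 0 higher and 4 lower with the library set term, beside 1105 and 1499 of the 36235 tested. With no replicate block they were 0 and 20, beside 1566 and 2559. With 1 day left out they ranged from 0 to 9 higher and from 20 to 54 lower. They were 9 and 54 without day 1, beside 3635 and 4779 of 37019 tested. Without day 3 they were 0 and 20, beside 2140 and 2633 of 36348. Rising control slopes numbered 47 with at least 1 CPM in 6 libraries, beside 1800 of 18905 tested. They numbered 14 with no filter, beside 468 of 82955 tested. There were 12 with the library set term and 9 with the share term, beside 843 and 837 of 36235. With 1 day left out they ranged from 8 without day 1 to 70 without day 5, beside 262 of 37019 and 1588 of 36263. Falling ones ranged from 0 to 1. The 1 was SmedASXL_018153 without day 6, beside 615 of 35993 tested. Bcat RNAi slopes above control numbered 1 with no filter, beside 116 of 82955 tested. With a replicate block in the slope model 1 was above and 1 below, beside 105 and 22 of 36235. Both above were SmedASXL_018153, and the 1 below was SmedASXL_076415, named after its values were seen. With no replicate block, 132 were below control and 110 below Bcat RNAi in APC RNAi, beside 5997 and 7405 of the 36235 tested. The cause of these shifts was not tested. The other alternatives, 242 values, kept their direction and their side of the threshold, or, for counts, stayed within 1.5 times. Among medians over the 134, that of APC RNAi against Bcat RNAi turned from -0.52 to 0.09 with the share term, and that of Bcat RNAi against control from -0.11 to 0.02 with the library set term. For named transcripts, signs were compared across settings for 1 called value each, of APC RNAi against control or of the control slope. None of these changed sign, and the called values of SmedASXL_028927 and SmedASXL_071252 were not among them.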
